A study of Mus musculus with 6 samples.

Results

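The genes described here are Meis1, Meis2, Meis3, Pbx2, Pbx3, Pbx4, Pknox1 and Pknox2, which were chosen by name as cofactors of Hox proteins, 8 of the 51733 gene symbols in the count tables. RNA was sequenced from Sox2-positive neural progenitor cells (NPCs) sorted from the neural tubes of C57BL/6 mouse embryos at E13.5. The 3 control libraries came from wildtype embryos, which the study describes as siblings of the mutants, and the 3 Ybx1-KO libraries from embryos without a functional Ybx1 gene, for which the methods name the allele Ybx1 tm1Ley. The allele is constitutive, so the gene was targeted in all tissues of the embryo. The cells were sorted by the Sox2-eGFP reporter, for which the methods name the allele Sox2 tm1Hoch. Libraries are numbered 1 to 3 within each group. The titles of controls 1 and 2 share their first number, as do those of Ybx1-KO 1 and 2, and no source used here says what that number marks or that each library came from its own embryo, so p-values may measure a spread that is partly technical.

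Meis, Pbx and Pknox proteins belong to the TALE class of homeodomain proteins, named after an extra loop between the first and second helices of the DNA-binding domain. Pbx proteins bind DNA together with Hox proteins and sharpen their choice of sites. Meis and Pknox proteins (Pknox proteins are also called Prep) bind Pbx proteins, keep them in the nucleus and join them on DNA as a further partner. In the neural tube Hox genes are transcribed in the hindbrain and spinal cord and not in the forebrain, whereas several TALE genes, Meis2 among them, are also used in the developing forebrain.

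The stretch of the homeobox that defines the class is shown for all 8 genes because it shows how close the paralogues are to each other and so how far read pairs could be mixed between them. It runs from the codons for the proline, tyrosine and proline of the loop to the codons of the recognition helix for tryptophan, phenylalanine, a variable residue and asparagine, and both ends are in capitals. Each is written 5′ to 3′ on the coding strand from a GENCODE M21 transcript.
Meis1: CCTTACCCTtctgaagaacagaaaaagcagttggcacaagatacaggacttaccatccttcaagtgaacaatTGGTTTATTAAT
Meis2: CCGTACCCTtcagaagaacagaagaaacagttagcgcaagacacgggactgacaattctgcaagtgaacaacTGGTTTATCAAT
Meis3: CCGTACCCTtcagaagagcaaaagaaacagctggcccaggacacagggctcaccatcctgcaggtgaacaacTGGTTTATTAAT
Pbx2: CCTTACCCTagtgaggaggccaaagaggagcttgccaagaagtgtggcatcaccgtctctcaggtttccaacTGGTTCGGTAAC
Pbx3: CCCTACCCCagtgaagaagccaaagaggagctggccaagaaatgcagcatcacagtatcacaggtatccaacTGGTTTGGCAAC
Pbx4: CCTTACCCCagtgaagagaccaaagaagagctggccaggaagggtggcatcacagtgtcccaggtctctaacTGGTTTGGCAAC
Pknox1: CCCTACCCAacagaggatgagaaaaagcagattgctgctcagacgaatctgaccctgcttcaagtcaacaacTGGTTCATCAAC
Pknox2: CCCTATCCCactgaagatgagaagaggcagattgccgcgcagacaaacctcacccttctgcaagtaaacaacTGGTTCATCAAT

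Every stretch is 84 bases long and is split over 2 coding exons. In the GRCm38 assembly the stretch of Meis1 lies within chr11:18885642-18905762 on the minus strand, that of Meis2 within chr2:115868794-115921745 on the minus strand and that of Meis3 within chr7:16183794-16184047 on the plus strand. The stretch of Pbx2 lies within chr17:34594655-34594821 on the plus strand, that of Pbx3 within chr2:34178322-34204842 on the minus strand and that of Pbx4 within chr8:69866541-69870049 on the plus strand. The stretch of Pknox1 lies within chr17:31602789-31603196 on the plus strand and that of Pknox2 within chr9:36894489-36895384 on the minus strand.

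Within a subfamily the stretches are close but not the same. Meis2 and Meis3 share 84.5% of the bases, Meis1 and Meis2 83.3%, Pbx3 and Pbx4 84.5%, and Pknox1 and Pknox2 82.1%. Between subfamilies the Meis genes are nearer to the Pknox genes than to the Pbx genes, with 69.0% for Meis2 against Pknox1 and 51.2% for Meis2 against Pbx2. The longest run of bases shared by transcripts of any pair of the 8 genes is 42 bases, between Meis2 and Pknox2, and sequencing ran for 100 cycles on each end. Of all 100-base words in its transcripts, Meis1 shares 15.4% with the annotated genes Gm16140, on the opposite strand, and Gm37818, on the same strand. Pbx2 shares 3.59% with Gpsm3 and Pknox1 0.752% with an antisense gene, and the other 5 genes share none. The strand setting of the counting is not given in the sources used here, so the level of Meis1 is the least certain in this respect.

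Ybx1, the targeted gene, encodes a DNA- and RNA-binding protein with a cold shock domain. Its level was 238.5, 531 and 306 CPM (counts scaled to a common library size after TMM normalization) in controls 1, 2 and 3 and 126, 55.4 and 9.66 CPM in Ybx1-KO 1, 2 and 3. The groups did not overlap, though Ybx1 RNA was far from absent in Ybx1-KO 1, whose level was nearest to that of control 1, and the mean over the Ybx1-KO libraries was 17.8% of the control mean. The log2 fold change was -2.49 (SE 0.675), and the adjusted p was 0.301 (edgeR, quasi-likelihood, Benjamini-Hochberg). Counts outside the deleted part, if any, cannot be told from those within it in a table of whole genes. Sox2, the gene used for the sort, stood at 17.5, 43.0 and 48.4 CPM in the controls and at 33.6, 50.6 and 24.2 CPM in Ybx1-KO libraries, so it was present in all 6.

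Ybx1-KO 3 stood apart from the other libraries. It was the shallowest, with 4743279 counts on genes against 8483075 and 13321952 in Ybx1-KO 1 and 2 and 20841990 to 23883542 in the controls. It had 59.5% of its read pairs outside genes and 7.22% on genes. Scaled to the total on genes alone, it also gave 4144 CPM on 1467 receptor genes for smell, pheromones and taste, which neural tissue at this age should hardly use, while the other libraries gave 20.7 to 88.4 CPM. The level per kilobase on these receptor genes, taken as a background, was 0.773 FPKM (CPM per kilobase of exon, from a library's total on genes) there and at most 0.0165 FPKM elsewhere. That background amounted to 31.3% of the Pbx4 counts of Ybx1-KO 3, 13.45% of its Pknox1 counts, 11.7% of its Pknox2 counts, 7.30% of its Meis1 counts and 5.81% of its Meis2 counts. All 3 Ybx1-KO libraries were shallower than any control, so depth and genotype cannot be told apart, and the results on the 8 genes and the medians of the lists tested beside them are given below with and without Ybx1-KO 3.

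All 8 genes were transcribed in both groups and passed the filter of a mean above 1 FPKM in either group. FPKM takes the length of a gene's exons into account, so it allows levels to be compared between genes. In controls Pbx3 was the most abundant by mean at 20.4 ± 11.8 FPKM (SD, n = 3), followed by Meis2 at 18.8 ± 2.45, Pbx2 at 15.5 ± 6.33 and Meis3 at 13.49 ± 2.78 FPKM. Meis1 followed at 4.90 ± 3.05, Pknox1 at 4.36 ± 0.844, Pknox2 at 3.13 ± 1.32 and Pbx4 at 1.88 ± 0.297 FPKM. The values of the first 4 genes overlapped from one to the next, as did those of the last 4, and there was a gap between Meis3 and Meis1. In Ybx1-KO NPCs the order by mean began with Pbx2 at 29.8 ± 7.24 FPKM, Pbx3 at 23.6 ± 1.98, Meis3 at 21.6 ± 4.29 and Meis2 at 14.6 ± 1.09 FPKM. It went on with Meis1 at 8.23 ± 2.08, Pknox1 at 4.32 ± 1.32, Pknox2 at 4.15 ± 2.40 and Pbx4 at 2.27 ± 0.932 FPKM. Here Pbx2, Pbx3 and Meis3 overlapped, and all Meis2 values lay below all those of Meis3. All Meis1 values lay below those of Meis2 and above those of Pknox1. Pknox2 overlapped with both Pknox1 and Pbx4, while all Pbx4 values lay just below those of Pknox1. Meis2 was thus the second of the 8 by mean in controls and the fourth in Ybx1-KO NPCs, though it was above Pbx3 in controls 1 and 3 (19.7 against 14.2 and 16.0 against 13.0 FPKM), so its place in controls rests on control 2. The order also depends on the length used. Per kilobase of the longest transcript, Pbx3 led in Ybx1-KO NPCs with a mean of 50.5 FPKM, above Meis3 at 35.6, Pbx2 at 35.3 and Meis2 at 31.9 FPKM.

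**Figure D1:**
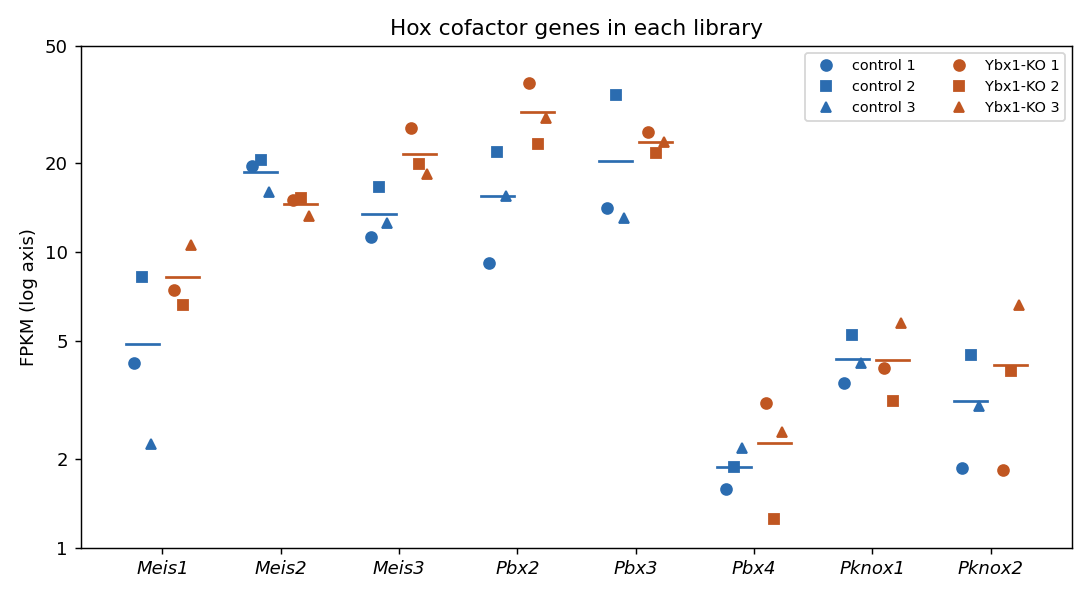
Level of the 8 cofactor genes in each library, in FPKM on a log axis, with controls in blue and Ybx1-KO in orange, one symbol per library number and a bar at each group mean. Meis2 lies lower and Meis3 and Pbx2 lie higher in all Ybx1-KO libraries on this scale, and the groups of the other 5 genes overlap.

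The comparison of Ybx1-KO with control NPCs called none of the 8 genes. Calling needed a fold change above 1.5 together with an adjusted p under 0.05, and 0% of the 21329 genes tested met this. No adjusted p lay under 0.167, with a biological coefficient of variation of 0.800. At an unadjusted p below 0.05 stood 0 of the 8 genes and 11.2% of all tested genes, 6.96% higher and 4.26% lower in Ybx1-KO. With DESeq2 1 of the 8 genes, Pbx2, passed that unadjusted limit (log2 fold change 0.87, p 0.0369, adjusted p 0.278), beside 13.4% of all genes with a DESeq2 p, and 118 genes were called higher and 96 lower. Of the 8 genes, 6 had a positive and 2 a negative log2 fold change, with a median of 0.14, beside a median of 0.31 over all tested genes, of which 61.3% were positive. The median of the 8 was 0.67 without control 2, 0.28 without Ybx1-KO 3 and -0.09 without control 1. That of all tested genes also moved, from 0.0134 to 0.672 when 1 library was left out. With other tools, scalings and filters it ranged from 0.0755 to 0.701. On the scale normalized by TMM (trimmed mean of M values) the groups overlapped for all 8 genes, while they did not overlap for 13.1% of all tested genes, 4.99% higher and 8.15% lower in Ybx1-KO.

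The outcome for 3 genes depended on how the libraries were scaled. When counts were scaled by the library's total on genes alone, as FPKM is, Meis2 was lower and Meis3 and Pbx2 were higher in every Ybx1-KO library than in any control. On that scale the groups did not overlap for 5.87% of tested genes in the higher and 5.26% in the lower direction. The two-sided exact permutation test gave p = 0.1 for each of the 3 genes, the smallest p that 3 against 3 libraries allow. The scalings differ most for Ybx1-KO 2 and 3, whose TMM factors were 0.727 and 1.57, while those of the other libraries lay between 0.902 and 1.05. Which of these scales is nearer to the RNA content of the cells was not tested.

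Meis1 can bind Pbx and Hox proteins and is used in hindbrain, eye and blood development. It stood at 44.4, 96.8 and 25.9 CPM in controls 1, 2 and 3 and at 75.8, 96.7 and 75.2 CPM in Ybx1-KO 1, 2 and 3. Control 2 was as high as the highest Ybx1-KO library, and the other controls lay below all of them. Its log2 fold change was 0.57 (SE 0.452), with an adjusted p of 0.553 (edgeR, quasi-likelihood, Benjamini-Hochberg) and an exact permutation p of 0.4. Without control 2 the log2 fold change was 1.24, with an unadjusted p of 0.0177 (adjusted p 0.536, edgeR). Without control 3 it was at its lowest, 0.23.

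Meis2, which is used in ventral forebrain, midbrain and neural crest development, had the highest mean CPM of the 8 genes. It stood at 237, 278 and 211 CPM in the controls, and Ybx1-KO libraries 1, 2 and 3 gave 174.5, 255 and 108 CPM. Ybx1-KO 1 and 3 lay below all controls, and Ybx1-KO 2 lay among them. With these values the log2 fold change was -0.43 (SE 0.439), with an adjusted p of 0.647 (edgeR, quasi-likelihood, Benjamini-Hochberg) and an exact permutation p of 0.3. It was -0.16 without Ybx1-KO 3 and -0.67 without Ybx1-KO 2, and it stayed below 0 when any other library was left out.

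Meis3, a gene with a known role in hindbrain patterning, stood at 35.7, 58.9 and 43.9 CPM in the controls and at 80.7, 87.2 and 39.4 CPM in Ybx1-KO libraries. Ybx1-KO 1 and 2 were above all controls and Ybx1-KO 3 was among them. Over all 6 libraries the log2 fold change was 0.58 (SE 0.405), with an adjusted p of 0.509 (edgeR, quasi-likelihood, Benjamini-Hochberg) and an exact permutation p of 0.3. Without Ybx1-KO 3 it was 0.88, with an unadjusted p of 0.0334 (adjusted p 0.353, edgeR). In the other direction, it was 0.41 without Ybx1-KO 1 and 0.42 without control 1 (unadjusted p 0.372 and 0.4025 in edgeR). Kept to the genes tested in all 6 libraries, it was 0.38 without Ybx1-KO 2.

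Ratios between the Meis genes do not depend on how libraries are scaled, since they are taken within a library, but they do depend on the gene lengths used. Meis3 reached 0.572, 0.805 and 0.790 times the Meis2 level per length in the controls and 1.76, 1.30 and 1.38 times that level in the Ybx1-KO libraries. By the union of exons, Meis2 was the higher of the pair in all 3 controls and Meis3 in all 3 Ybx1-KO libraries. Per length of the longest transcript the ratio was 0.431, 0.606 and 0.594 in the controls and 1.32, 0.978 and 1.04 in Ybx1-KO, so Meis2 was still slightly above Meis3 in Ybx1-KO 2. The ratio of Meis1 to Meis2 was 0.215, 0.399 and 0.141 in the controls and 0.496, 0.434 and 0.796 in the Ybx1-KO libraries, with control 2 close to Ybx1-KO 2. As shares of the summed Meis FPKM, Meis2 made up 56.0%, 45.4% and 51.8% in the controls and 30.8%, 36.6% and 31.5% in the Ybx1-KO libraries. Meis3 made up 32.0%, 36.5% and 40.9% in the controls and 54.0%, 47.5% and 43.5% in the Ybx1-KO libraries. The share of Meis1 overlapped between the groups, at 7.28% to 18.1% in controls and 15.3% to 25.03% in Ybx1-KO.

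Shares and ratios were not tested, and the ratios were chosen after the values had been seen. All 28 pairs of the 8 genes were looked at, and the groups did not overlap for 6 of them. Besides the pairs of Meis genes these were Meis1 to Pknox1, Meis3 to Pknox1, Pbx2 to Pknox1 and Meis2 to Pbx2. Meis2 or Pknox1 was part of each of the 6 pairs, and Pbx3, Pbx4 and Pknox2 were part of none. Over the other 21321 tested genes, the ratio to Meis2 was higher in all Ybx1-KO libraries for 11.2% and lower in all for 1.79%. The ratio to Pknox1 was higher in all Ybx1-KO libraries for 7.36% and lower in all for 3.68% of these genes. In proportion to its values, the narrowest of the 6 gaps was that of Meis3 to Pknox1, with 3.15 as the highest control and 3.20 as the lowest Ybx1-KO value.

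**Figure D2:**
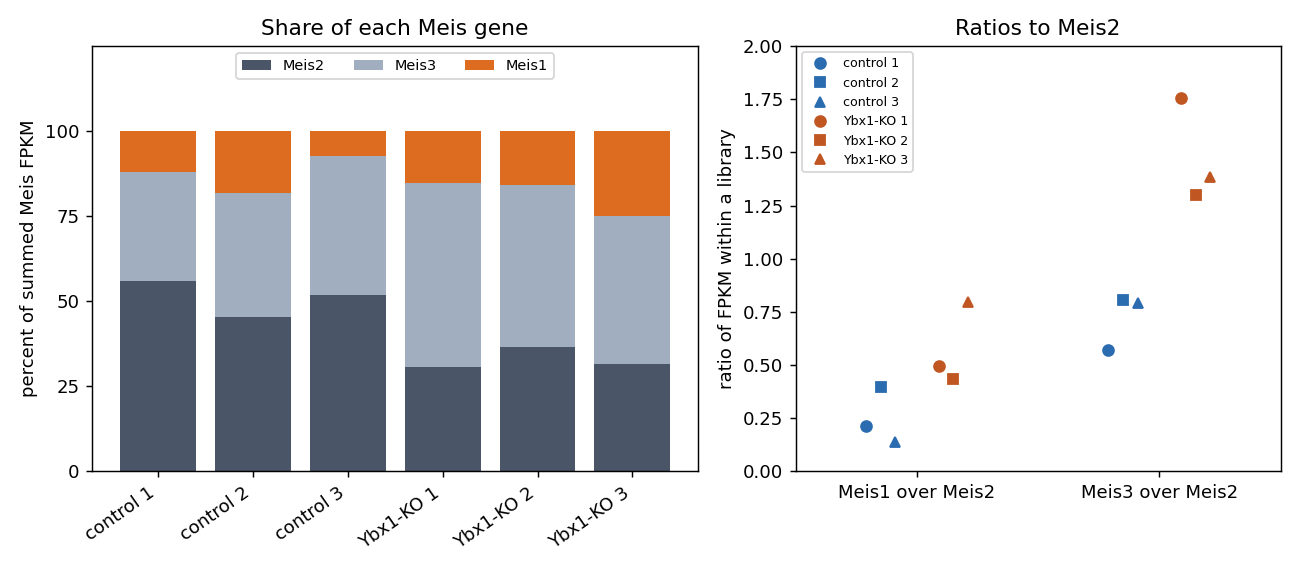
Left, the percent of summed Meis FPKM from each Meis gene in each library, as stacked bars that add up to 100. Right, the FPKM of Meis1 and Meis3 divided by that of Meis2 within each library, with controls in blue and Ybx1-KO in orange. The Meis2 share lies between 45.4% and 56.0% in controls and between 30.8% and 36.6% in Ybx1-KO libraries.

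Of the 3 Pbx genes examined, Pbx2 had the largest log2 fold change of all 8 genes. It encodes a broadly expressed Pbx protein and stood at 33.4, 88.8 and 62.1 CPM in the controls and at 131, 117 and 70.1 CPM in Ybx1-KO libraries. Ybx1-KO 1 and 2 lay above all controls, and Ybx1-KO 3 lay between controls 3 and 2. The log2 fold change was 0.79 (SE 0.433), with an unadjusted p of 0.0869 and an adjusted p of 0.451 (edgeR, quasi-likelihood, Benjamini-Hochberg), and the exact permutation p was 0.2. It was 1.03 without Ybx1-KO 3 (unadjusted p 0.0337, adjusted p 0.353 in edgeR) and 1.16 without control 2 (unadjusted p 0.0329, adjusted p 0.637 in edgeR). In the other direction, it was 0.49 without control 1 and 0.55 without Ybx1-KO 1 (unadjusted p 0.344 and 0.254 in edgeR). With other scalings it ranged from 0.83 to 0.96, and it was positive whichever library was left out.

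Pbx3, which is used in hindbrain and spinal cord neurons, differed more among the controls than between the groups. It stood at 86.5, 232 and 87.3 CPM in the controls and at 150.5, 183 and 97.5 CPM in Ybx1-KO libraries. Control 2 was the highest of all 6 libraries and the other controls were the lowest. Between the groups the log2 fold change was 0.09 (SE 0.468), with an adjusted p of 0.945 (edgeR, quasi-likelihood, Benjamini-Hochberg). It was 0.73 without control 2 and -0.15 without control 1 or without control 3.

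Pbx4, best known from the testis, was the least abundant of the 8. It gave 73, 99 and 104 raw counts in the controls and 58, 37 and 26 in the Ybx1-KO libraries, or 3.50, 4.63 and 5.28 CPM against 6.58, 3.84 and 3.70 CPM. Ybx1-KO 1 was the highest and control 1 the lowest, and the groups overlapped. Its log2 fold change was 0.07 (SE 0.760), the largest error of the 8 genes. Among these 3 genes only, Pbx2 made up 36.8%, 37.9% and 50.6% of the summed FPKM in controls and 56.7%, 50.3% and 52.2% in Ybx1-KO, so control 3 resembled the Ybx1-KO libraries.

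The Pknox genes encode the other Pbx-binding subfamily, and Pknox1 is expressed in most tissues. Pknox1 stood at 24.9, 40.8 and 32.0 CPM in the controls and at 27.1, 30.1 and 26.9 CPM in Ybx1-KO libraries. The 3 Ybx1-KO values lay within the range of the controls. Its log2 fold change was -0.22 (SE 0.368), the smallest error of the 8 genes, with an adjusted p of 0.790 (edgeR, quasi-likelihood, Benjamini-Hochberg). It was -0.38 without control 1 and -0.016 without control 2.

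Pknox2, which is more restricted and is found in the nervous system, stood at 19.2, 52.0 and 34.2 CPM in the controls and at 18.3, 56.8 and 46.2 CPM in Ybx1-KO libraries. Both groups held one library below 20 CPM and others well above it. The log2 fold change was 0.20 (SE 0.464), with an adjusted p of 0.850 (edgeR, quasi-likelihood, Benjamini-Hochberg). Without Ybx1-KO 3 the values were -0.17 for Pknox1, 0.10 for Pknox2, 0.24 for Pbx4, 0.32 for Pbx3 and 0.65 for Meis1.

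The other TALE genes looked at were the Tgif genes, which encode repressors, and the Irx genes, which pattern the neural tube along its axes. Of 8 such genes 7 were tested, all 7 had a positive log2 fold change, 0 were called, and the median was 0.63, 1.07 without control 2 and 0.89 without Ybx1-KO 3. Irx4 passed the filter through its Ybx1-KO mean alone (1.18 FPKM, against 0.474 in controls), so its higher mean there was set by the filter. Background amounted to 45.5% of its counts in Ybx1-KO 3. Irx3 had the largest difference, at 3.31, 8.00 and 4.01 CPM in the controls and 45.4, 7.69 and 12.8 CPM in Ybx1-KO libraries. Ybx1-KO 1 was far above the rest and Ybx1-KO 2 lay below control 2. Its log2 fold change of 2.10 (SE 0.622) had an unadjusted p of 0.00369 and an adjusted p of 0.359 (edgeR, quasi-likelihood, Benjamini-Hochberg). The log2 fold changes of the others were 1.06 (SE 1.28) for Irx4, 1.02 (SE 0.491) for Irx5, 0.63 (SE 0.421) for Tgif1, 0.59 (SE 0.442) for Irx2, 0.53 (SE 0.457) for Tgif2 and 0.47 (SE 0.385) for Irx1. On the scale of total counts alone Tgif1 and Irx1 were higher in all Ybx1-KO libraries, beside the 5.87% of all tested genes on that scale. Irx6 was below the filter.

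**Figure D3:**
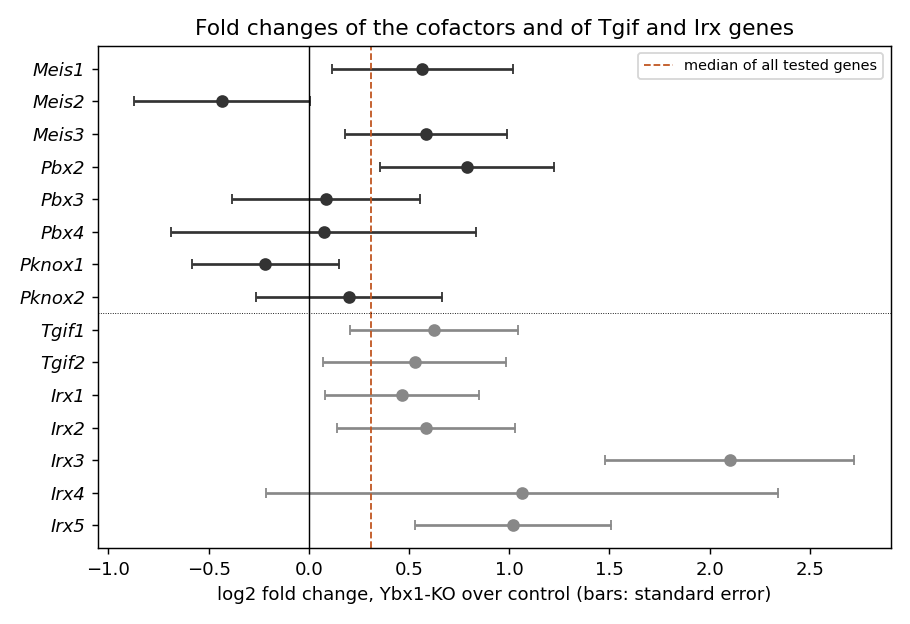
Log2 fold change of Ybx1-KO over control for the 8 cofactor genes (black) and the 7 tested Tgif and Irx genes (grey), with bars for the standard error, a line at 0 and a dashed line at the median of all tested genes, 0.31. Meis2 and Pknox1 lie below 0, and Irx3 at 2.10 lies farthest to the right.

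Hox genes, whose proteins the cofactors bind, varied far more between libraries than the cofactors did. The summed level of 39 Hox genes was 130 CPM in control 1, 325 CPM in control 3, 677 CPM in Ybx1-KO 3, 1067 CPM in control 2, 1334 CPM in Ybx1-KO 1 and 1384 CPM in Ybx1-KO 2. Scaled to the total on genes alone it was 130, 955 and 297 CPM in controls 1, 2 and 3 and 1387, 1000 and 1004 CPM in Ybx1-KO 1, 2 and 3, so that the groups did not overlap and the order of the libraries differed. Of the 35 Hox genes tested, 33 had a positive log2 fold change and 12 had an unadjusted p below 0.05, all 12 higher in Ybx1-KO, beside 6.96% of all tested genes, and the median was 1.19, 0.68 without control 1, 2.39 without control 2 and 1.40 without Ybx1-KO 3. None was called. The most abundant was Hoxb9, and the groups did not overlap and the unadjusted p was below 0.05 for Hoxa3, Hoxb1 and Hoxb2, with log2 fold changes of 1.73, 3.72 and 2.56, beside 4.99% of all tested genes that were higher without overlap. In a list of 12 genes of the hindbrain programme, which also holds these 3, 11 were positive and 5 had an unadjusted p below 0.05, with a median of 1.30, 0.86 without control 1, 2.56 without control 2 and 1.40 without Ybx1-KO 3, and Hoxb3 the most abundant.

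In the order of libraries by Hox level on the TMM scale, Pbx2 stood at 33.4, 62.1, 70.1, 88.8, 131 and 117 CPM, so that it followed the same order except for the last pair. Meis1 stood at 44.4, 25.9, 75.2, 96.8, 75.8 and 96.7 CPM in that order, so that both libraries with the least Hox RNA had the least Meis1. Meis3 stood at 35.7, 43.9, 39.4, 58.9, 80.7 and 87.2 CPM. Pbx3 lay between 86.5 and 97.5 CPM in the 3 libraries with the least Hox RNA and between 150.5 and 232 CPM in the other 3. Pknox2 stood at 19.2, 34.2, 46.2, 52.0, 18.3 and 56.8 CPM, in the same order except for Ybx1-KO 1. Meis2, Pbx4 and Pknox1 showed no such order, with 237 CPM of Meis2 in the library with the least Hox RNA and 255 CPM in the one with the most. Summed forebrain transcription factor RNA was 449, 745, 90.8, 158, 323 and 276 CPM in the same order of libraries. In this forebrain list, Emx1 passed the filter through its control mean alone (3.98 FPKM, against 0.679 in Ybx1-KO). Gsx2 passed it through its Ybx1-KO mean alone (1.26 FPKM, against 0.961 in controls). For both, the group with the higher mean was set by the filter. The 10 genes of that list, of which Lhx2 was the most abundant, gave 3 positive and 7 negative log2 fold changes and a median of -0.74, which was -0.22 without control 3, -0.34 without Ybx1-KO 3, -1.14 without control 2 and -1.17 without Ybx1-KO 2. The libraries are shared by these values and control 2 lies among the Ybx1-KO libraries in Hox level on this scale, and the part that the axial makeup of the sorted cells has in the cofactor levels was not tested. In bulk RNA fewer cells of a kind and less RNA per cell cannot be told apart.

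**Figure D4:**
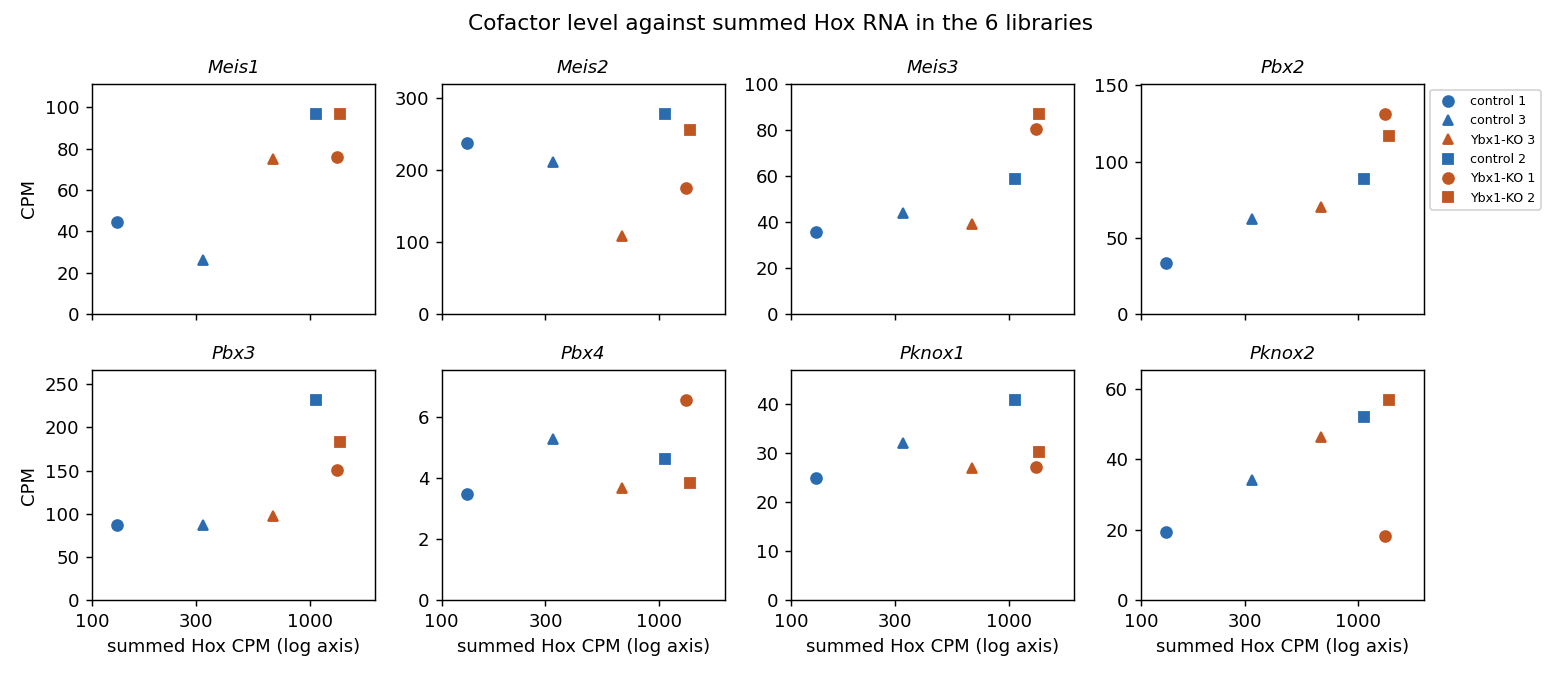
CPM of each cofactor gene against the summed CPM of 39 Hox genes (log axis), both on the TMM scale, in the 6 libraries, with controls in blue and Ybx1-KO in orange. Pbx2 and Meis3 are highest in the 2 libraries with the most Hox RNA, Ybx1-KO 1 and 2, and control 2 lies near these in Meis1 and above them in Pbx3.

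Genes for proteins known to work with Pbx and Meis proteins, such as the acetyltransferases and deacetylases they recruit, were also listed. Of 10 tested, 2 had a positive and 8 a negative log2 fold change, none had an unadjusted p below 0.05, and the median was -0.19, which turned to 0.08 without control 2 and to 0.03 without Ybx1-KO 3, and was -0.30 without control 3 and -0.31 without Ybx1-KO 2. Hdac2 was the most abundant, at 455, 393 and 394 CPM in controls and 400.3, 251 and 210.0 CPM in Ybx1-KO. The groups did not overlap for 1 of the 10, Myh9, a non-muscle myosin gene, with a log2 fold change of 0.55 and an unadjusted p of 0.147 in edgeR, named after its values were seen, beside the 4.99% of all tested genes that were higher without overlap.

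Of the markers of other cell types none was called, and of their sums only that of mesenchyme markers did not overlap between the groups, on the TMM scale alone. All 8 tested mesenchyme markers were lower in Ybx1-KO by log2 fold change, 5 of them with an unadjusted p below 0.05 (4.26% of all tested genes), with a median of -1.79. Their sum was 935, 174.7 and 238 CPM in the controls and 152, 161 and 100.3 CPM in Ybx1-KO libraries, with Col3a1 the most abundant. Scaled to the total on genes alone, control 2 at 156 CPM lay just below Ybx1-KO 1 at 158 CPM, so that the groups overlapped. Without control 1 the median was -0.58, and without Ybx1-KO 3 it was -1.66. Dcn, counted among the 8 mesenchyme markers and among the 5, passed the filter through its control mean alone (5.84 FPKM, against 0.609 in Ybx1-KO). Its lower mean in Ybx1-KO was thus set by the filter. Markers of neural crest had a median of 0.72 (1.20 without control 2, 0.36 without Ybx1-KO 2 and 0.84 without Ybx1-KO 3) and summed to 186.5, 406 and 184 CPM in controls and 501, 364 and 203 CPM in Ybx1-KO. Endothelial markers summed to at most 46.7 CPM and microglial markers to at most 34.96 CPM in any library. Some of these tissues also use Meis and Pbx genes, and the part of these cells in the cofactor levels was not tested.

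For the most abundant gene of each subfamily in controls, the 3 protein-coding genes most like it across the 6 libraries were found by Pearson r of log2(CPM + 0.5), as a description of libraries that share depth and makeup. For Meis2 these were Ints13 (r = 0.996), Zfp532 (0.989) and Nek9 (0.986). For Pbx3 they were Cry2 (0.994), Ebf1 (0.994) and Cbl (0.988). For Pknox1, Iqsec3 (0.973) and Esrrg (0.965) were among them.

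Ybx1 is named after binding to the Y box, an inverted CCAAT box, and so promoters were searched for these letters. RefSeq promoter windows, from 250 before to 50 after the start, were found for 5 of the 8 genes. On either strand the letters CCAAT were in 3 of these 5, Meis1, Meis2 and Pbx4, beside 41.1% of 27025 genes. The letters CTGATTGG, which hold ATTGG, the reverse complement of CCAAT, were in 1 of the 5, Pbx4, beside 4.70% of genes. That match is shown in capitals in a window of 40 bases, from -220 to -181, at chr8:69832404-69832443 on the plus strand of GRCm38.p6.
Pbx4: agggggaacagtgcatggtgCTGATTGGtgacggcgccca
Pbx4 was also the gene with the fewest counts, and its level overlapped between the groups. TGACAG, letters bound by Meis and Pknox proteins, and TGATTNAT, bound by Pbx and Hox proteins together, were in none of the 5 windows, beside 21.6% and 3.74% of all genes. A match of letters shows no binding.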

How the data were processed

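The authors mapped read pairs from stranded total RNA libraries, counted them on GENCODE genes with HTSeq 0.6.1p1 and deposited raw counts per gene symbol, without normalization or pooling. The aligner, build and strand setting are not given in the sources used here. Of 51733 symbols, 47624 were found in GENCODE M21 (GRCm38), 357 more under an older name, and 3752 were not found. Genes whose mean FPKM (union of exons, total on genes) exceeded 1 in at least 1 group were tested with edgeR 4.0.16 in R 4.3.3, by TMM and the quasi-likelihood test with Benjamini-Hochberg adjustment over all tested genes, with no covariate. A gene that passed this filter in 1 group alone had its higher mean FPKM there by that choice. The study used limma-voom, here an alternative (limma 3.58.1), as was DESeq2 1.42.0. edgeR, limma-voom and DESeq2 were checked on simulated data with known changes and, at the dispersion estimated here, recovered only part of them, with some false calls. The genes, lists and motifs were chosen with earlier results of these data known. Of other lists, the text names the most abundant gene and genes without overlap at an unadjusted p below 0.05. Single genes also had a two-sided exact permutation test. In the shallowest library 3 counts, the smallest amount taken as shown, are 0.426 CPM, which covers counting error only. Other genes of these families are not analysed here, and 1 gene that meets the rule on likeness is not reported here. Figures were drawn with matplotlib 3.10.9.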

Additional observations from a re-analysis of the deposited data

How the results depend on the processing

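Meis1, Meis2, Meis3 and Pbx2 kept the sign of their log2 fold change under all 24 alternatives, 12 of them without 1 library, and none of the 8 genes reached an adjusted p below 0.05 in any. Pbx3 turned to -0.010 and Pbx4 to -0.030 without a filter, and Pknox1 to 0.0090 with total counts alone. Leaving out each library gave -0.15 to 0.73 for Pbx3 and -0.32 to 0.29 for Pbx4. It gave -0.38 to -0.016 for Pknox1 and -0.10 to 0.60 for Pknox2. Keeping the genes tested fixed was an alternative chosen after seeing the data. In the same order of genes the ranges were then -0.15 to 0.72, -0.25 to 0.21, -0.38 to -0.021 and -0.13 to 0.60. With genes fixed and without control 1, Pbx4 was at -0.075 and Pknox2 at -0.094. Without control 1, 3 of the 8 genes were positive in place of 6. The count of the 8 with an unadjusted p below 0.05 was 1 with DESeq2, RLE (relative log expression) size factors, upper quartile scaling or total counts, Pbx2 each time, and 0 to 2 when libraries were left out.

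Called genes numbered 118 higher and 96 lower with DESeq2, 113 and 80 without a filter, and 0 to 730 and 0 to 216 when libraries were left out. With genes fixed they numbered 283 and 137 without Ybx1-KO 2, 79 and 28 without Ybx1-KO 1, 27 and 19 without Ybx1-KO 3, and 29 and 42 without control 2. Genes higher at an unadjusted p below 0.05 numbered 757 with limma-voom, 2396 without a filter, 930 with CPM above 1 in 3 libraries, 977 among protein-coding genes and 627 to 3302 when libraries were left out, and, with genes fixed, 644, 869 and 627 without controls 1, 2 and 3 and 2364 and 2435 without Ybx1-KO 1 and 2. Genes lower numbered 449 with total counts alone and 405 to 1068 when libraries were left out (395 without control 1 with genes fixed). The log2 fold change of Ybx1 passed an adjusted p of 0.05 with DESeq2 (-2.44), without a filter (-2.52), without Ybx1-KO 1 (-3.49, or -3.46 with genes fixed) and without Ybx1-KO 2 (-2.34), and was -3.49 to -1.95 when libraries were left out.

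With the longest transcript as length, mean shares in controls and Ybx1-KO were 59.0% and 40.5% for Meis2, 29.4% and 39.3% for Pbx2 and 66.0% and 57.2% for Pbx3. In controls they were 31.8% for Meis3, 45.7% for Pknox1 and 54.3% for Pknox2, so the more abundant Pknox gene, and in Ybx1-KO the more abundant Pbx gene, depends on the length used, and levels and ratios by this length were added for all 8 genes after seeing the data. The causes of these shifts were not tested. No paired analysis was possible because the titles give no number that a control shares with a Ybx1-KO library.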

Other observations

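Among progenitor markers, Nes, an intermediate filament gene, was higher in all Ybx1-KO libraries (287, 216 and 168 CPM) than in the controls (64.0, 131 and 53.5 CPM), with a log2 fold change of 1.44, and Hes5, a Notch target, likewise (1.05). The study, in contrast, names Hes5 among the genes downregulated in Ybx1-KO NPCs. Slc1a3, a glutamate transporter of radial glia, was lower without overlap (-1.78). Of 10 progenitor markers 7 were positive, with a median of 0.37 (0.19 without control 1, 0.23 without Ybx1-KO 2, 0.54 without Ybx1-KO 3 and 0.64 without control 2) and Fabp7 the most abundant. Among 12 neuron markers 8 were negative, with a median of -0.33 (0.0027 without Ybx1-KO 3 and -0.56 without Ybx1-KO 1) and Dcx the most abundant, and Snap25, a synaptic gene, was lower without overlap (-1.28), while the neurofilament gene Nefm had a log2 fold change of 1.51 (unadjusted p 0.0244 in edgeR) with groups that overlapped. Foxd3 and Erbb3, used in neural crest, were higher without overlap (3.24 and 1.19), and Lum, a mesenchymal matrix gene, was lower without overlap (-2.74). Foxd3 passed the filter through its Ybx1-KO mean alone (7.98 FPKM, against 0.763 in controls). Over all tested genes 4.99% were higher and 8.15% lower without overlap. None of these genes was called by edgeR's quasi-likelihood test, in which the smallest adjusted p of any gene was 0.167. Erythroid genes summed to 1219, 985 and 523 CPM in controls and 1234, 493 and 204 CPM in Ybx1-KO, with Hbb-y the most abundant. Members differed in direction, with log2 fold changes of -4.67 for Hbb-bs, -3.25 for Hbb-bt and -1.61 for Alas2 and of 2.21 for the embryonic globin gene Hbb-bh1, all at an unadjusted p below 0.05. Hbb-bs stood at 602.5, 16.3 and 191 CPM in controls and 20.3, 6.33 and 4.97 CPM in Ybx1-KO, so that control 2 lay among the Ybx1-KO libraries, as it did for Hbb-bh1. Nefm and these 4 genes were named after their values were seen.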
